A study of Mus musculus with 20 samples.

Results

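The serum amyloid A genes Saa1, Saa2, Saa3 and Saa4 were followed in the livers of 20 female wild-type C57BL/6 mice, 8 weeks old when the work began. The members were the rows of the liver count table that carry one of these 4 gene names, and they are 4 of its 48440 genes, all of which passed the filter on low counts together with 16071 genes in all. Mice drank corticosterone (CORT, the main glucocorticoid of rodents and here the model of Cushing's syndrome) or its vehicle, and were injected intraperitoneally with a monoclonal antibody against acyl-CoA-binding protein (αACBP) or with an IgG2a isotype control. The 4 groups, of 5 livers each taken at the end of the fifth week, were Isotype + Vehicle and αACBP + Vehicle without the hormone, and Isotype + CORT and αACBP + CORT with it. Every mouse, the controls included, had thus received repeated injections of an antibody. The family was chosen by measured values, those of αACBP + CORT against Isotype + CORT, where Saa1, Saa2 and Saa3 were among the largest rises. That difference, and any other that uses livers of these 2 groups, is therefore given as a description without a test, and only αACBP + Vehicle against Isotype + Vehicle was tested for the members.

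Serum amyloid A proteins are small apolipoproteins carried on high-density lipoprotein (HDL). Hepatocytes make SAA1 and SAA2 in the acute-phase response, when interleukin-6, interleukin-1 and tumour necrosis factor act through STAT3, nuclear factor-κB and the C/EBP factors on their promoters, and glucocorticoids are known to enhance the cytokine effect. SAA3 is also made by macrophages and adipocytes, while SAA4 is the constitutive member of the family and is made by the liver without inflammation.

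The 4 genes lie side by side on chromosome 7 of the mouse. In RefSeq's annotation of GRCm38.p6, Saa3 spans chr7:46711998-46719615, Saa4 chr7:46727992-46732603 and Saa1 chr7:46740497-46743181, all on the minus strand, and Saa2 spans chr7:46751833-46754313 on the plus strand, so that Saa1 and Saa2 are neighbours with their promoters towards each other. Each has 4 exons in its canonical GENCODE transcript, and no base of these exons overlaps another gene. The coding sequences of Saa1 and Saa2 are 95.1% identical, those of Saa1 and Saa3 75.7%, and those of Saa1 and Saa4 65.0%. The windows of 250 bases before the start that RefSeq's promoter table gives for each gene were searched for motifs, because Saa1, Saa2 and Saa3 moved together and Saa4 did not. Some of these windows lie in transcribed sequence of longer transcripts, since 143 bases of the Saa1 window, 43 of Saa2, all 250 of Saa3 and 8 of Saa4 are in an exon of GENCODE M39. The longest stretch outside exons and the RefSeq gene span is therefore shown for Saa2 (chr7:46751583-46751789) and Saa4 (chr7:46732612-46732853), and sites of 30 bases around matches for Saa1 (chr7:46743144-46743173 and chr7:46743053-46743082) and Saa3 (chr7:46715757-46715786). All are read 5′ to 3′ on the strand of the gene. Capitals mark matches to the C/EBP letters TTNNGNAA or the κB letters GGNNNTNNCC on either strand.
Saa1, upstream site: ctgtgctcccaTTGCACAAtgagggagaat
Saa1, downstream site: atgacttgtctGGAGTTTTCCCAAgggtgg
Saa2: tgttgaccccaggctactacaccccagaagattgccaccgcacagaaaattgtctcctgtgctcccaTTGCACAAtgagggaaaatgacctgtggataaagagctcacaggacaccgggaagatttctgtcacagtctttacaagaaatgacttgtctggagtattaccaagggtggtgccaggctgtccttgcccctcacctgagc
Saa3, site: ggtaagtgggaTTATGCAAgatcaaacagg
Saa4: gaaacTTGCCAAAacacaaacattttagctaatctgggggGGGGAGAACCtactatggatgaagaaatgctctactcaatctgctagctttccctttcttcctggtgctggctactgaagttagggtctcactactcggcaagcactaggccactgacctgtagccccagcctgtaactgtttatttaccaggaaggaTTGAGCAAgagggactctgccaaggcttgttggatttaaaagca

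The Saa1 and Saa2 windows are 94.8% identical, while Saa1 and Saa3 stand at 48.9% and every other pair lower. A C/EBP match lies in each of the 4 windows, with 2 matches for Saa1, 1 for Saa2, 4 for Saa3 and 2 for Saa4, and 36.8% of 32851 promoter windows of the same length hold such a match. The κB letters occur in Saa1 as GGAGTTTTCC, from 91 to 82 bases before the start, where they overlap the C/EBP match TTTCCCAA at 86 to 79 bases. They occur also in Saa4, from 210 to 201 bases before the start, and in 39.9% of all windows. The window of Saa2 holds the upstream C/EBP match of Saa1, TTGCACAA, but neither the second one nor the κB letters. Matches to STAT3 (TTCNNNGAA, in 7.02% of windows), to a TATA box (TATAAA, 12.4%) and to the glucocorticoid receptor (GNACANNNTGTNC, 0.387%) are absent from all 4 windows. A match is only a run of letters, and the letters missing from a window say nothing of whether a factor binds there.

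Counts of read pairs on genes totalled 14934926 to 20299999 per liver, and 3 counts correspond to at most 0.201 CPM (counts relative to the total of the liver, scaled by edgeR's TMM factors), so each member was measured above this floor in every liver. The libraries of a group differed by more than sampling noise in each of 40 pairs. The fifth liver of αACBP + Vehicle stood somewhat apart, with the lowest median correlation with its group, 0.873, and the highest TMM factor, 1.29 against at most 1.08 in the others. Hepatocyte markers summed to 37455 to 138152 CPM in all livers, and of 10 neutrophil markers only 2 were abundant enough for a test. As the samples are whole liver, fewer cells of a type and less RNA per cell cannot be told apart.

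In the vehicle-treated isotype controls, Saa4 was the most abundant member per length of its canonical transcript (757 bases for Saa1, 652 for Saa2, 1007 for Saa3 and 2118 for Saa4). Its median there was 105 CPM per kilobase, against 49.3 for Saa1, 39.3 for Saa2 and 8.73 for Saa3, and neither the range of Saa4 against Saa1 nor that of Saa2 against Saa3 overlapped, while Saa1 and Saa2 did. In αACBP + CORT the order was Saa2 at 1527 CPM per kilobase, Saa1 at 1308, Saa4 at 136 and Saa3 at 28.0, and again only Saa1 and Saa2 overlapped. In αACBP + Vehicle the medians followed the same order, at 1208, 874, 107 and 37.8 CPM per kilobase, but Saa1 and Saa2 ranged across the levels of Saa4. In Isotype + CORT they were 121 for Saa4, 52.0 for Saa1, 35.1 for Saa2 and 5.18 for Saa3, and each overlapped the next. Together the 4 genes took a median of 0.0273% of all gene counts in Isotype + Vehicle, 0.0371% in Isotype + CORT, 0.178% in αACBP + Vehicle and 0.223% in αACBP + CORT.

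The antibody given without CORT raised Saa1, Saa2 and Saa3. In the order of replicates 1 to 5, Saa1 was at 37.5, 36.2, 37.4, 23.6 and 56.5 CPM in Isotype + Vehicle and at 1007, 40.3, 662, 1464 and 115 CPM in αACBP + Vehicle. In 3 antibody-treated livers Saa1 was thus more than 10 times every control, in replicate 5 it was above them all, and in replicate 2 it lay within their range. The fitted difference was 17.2-fold, a log2 fold change of 4.10 ± 0.73 (SE, n = 5 per group) with an adjusted p of 0.00750 by edgeR's quasi-likelihood test. Saa2 stood at 22.2, 44.6, 25.6, 19.8 and 53.3 CPM in the controls and at 1338, 31.2, 788, 2108 and 137 CPM with the antibody. The same 3 livers were high, replicate 5 was again in between, and replicate 2 was again inside the control range. Its log2 fold change was 4.73 ± 0.89 (adjusted p = 0.00891). Of the 16071 genes tested, 1.3% were called in this comparison and 0.684% were called higher, which needed an adjusted p up to 0.05 and a change of at least 1 on the log2 scale. All 4 members overlapped between the groups, and 7.13% of genes did not.

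Saa3 rose less. It was at 8.79, 8.87, 4.67, 3.51 and 14.4 CPM in Isotype + Vehicle and at 44.4, 9.85, 38.0, 57.5 and 9.51 CPM in αACBP + Vehicle, with a log2 fold change of 1.98 ± 0.48 (adjusted p = 0.0258). Replicates 1, 3 and 4 were above all controls and replicates 2 and 5 were at control level, so that replicate 5, intermediate for Saa1 and Saa2, was not raised for Saa3. Saa4, the constitutive member, was at 223, 228, 186, 189 and 225 CPM in the controls and at 340, 261, 227, 215 and 133 CPM with the antibody, and the groups overlapped. Its log2 fold change was 0.16 ± 0.20 (adjusted p = 0.741), and 2 standard errors to either side span -0.25 to 0.57.

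The calls of Saa1 and Saa2 rested on livers that differed widely. Taken over single livers, a two-sided exact permutation test of the mean log2 CPM gave unadjusted p-values of 0.0159 for Saa1 and 0.0238 for Saa2, 0.0397 for Saa3 and 0.651 for Saa4, where 0.00794 is the smallest that 5 against 5 livers allow. Leaving out αACBP + Vehicle replicate 4 lowered Saa2 to a log2 fold change of 4.11 (adjusted p = 0.0137). The call of Saa3 was lost without αACBP + Vehicle replicate 1 (adjusted p = 0.0705), without Isotype + Vehicle replicates 1, 2 or 3 in turn (0.0756, 0.0653 and 0.0552), and with only both groups compared in the fit (0.0605).

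**Figure D1:**
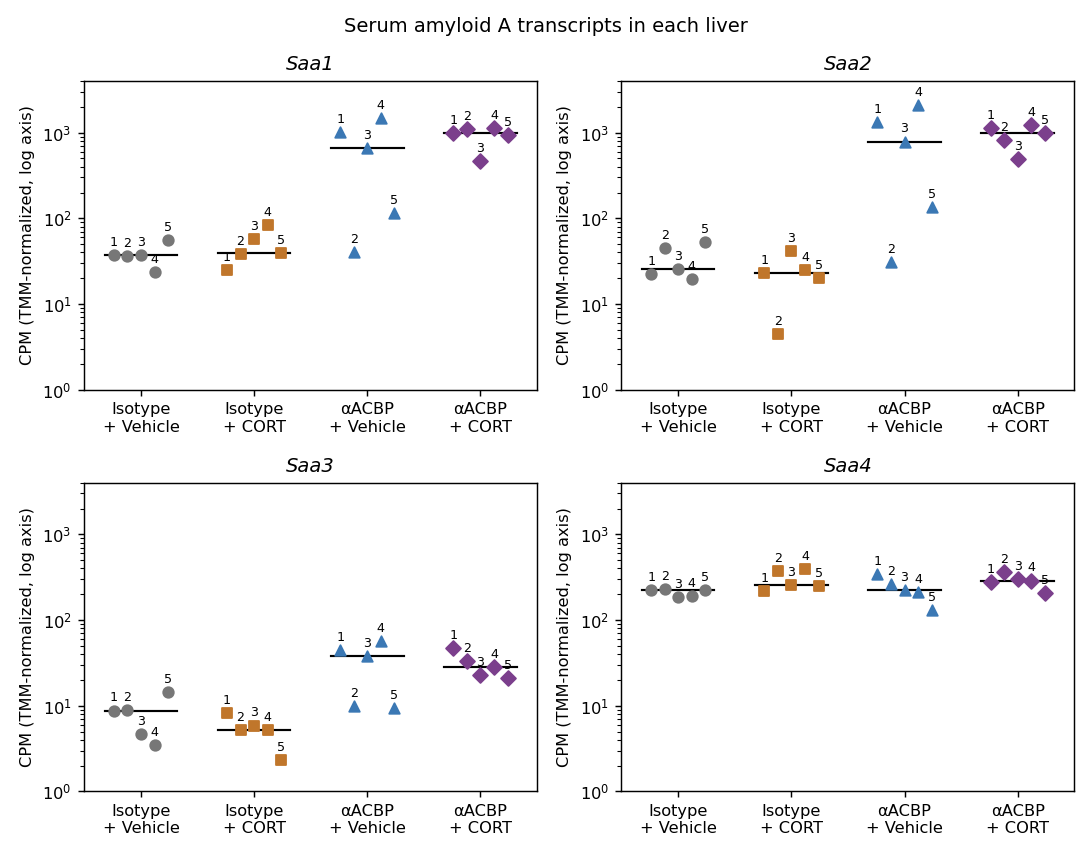
Normalized level of each serum amyloid A gene in every liver, in CPM on a log axis, by treatment group. Points are livers with their replicate number and the line is the group median. In αACBP + Vehicle, replicates 1, 3 and 4 are high for Saa1, Saa2 and Saa3, while replicate 2 lies at control level, and the 5 livers of αACBP + CORT are all high for these 3 genes.

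Within αACBP + Vehicle, Saa1 and Saa2 spread most among the members. The highest Saa1 value in this group was 36.3 times the lowest and the highest Saa2 value 67.7 times the lowest, compared with 2.41 and 2.52 times in αACBP + CORT, 3.35 and 9.11 times in Isotype + CORT and 2.39 and 2.70 times in Isotype + Vehicle. On the log2 scale the SD of Saa2 over the 5 αACBP + Vehicle livers was 2.53 and that of Saa1 2.22, larger than in 99.6% and 98.2% of 13872 genes compared, whose median SD was 0.42. Saa3 had an SD of 1.24 and Saa4 one of 0.50 in the same livers. Whether the spread differed between αACBP + Vehicle and αACBP + CORT was not tested.

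With CORT, the antibody left no liver at the low level. The values of this paragraph are those on which the family was chosen. Saa1 was at 25.2, 38.7, 57.1, 84.4 and 39.4 CPM in Isotype + CORT and at 990, 1109, 467, 1123 and 938 CPM in αACBP + CORT. For Saa2 the livers of Isotype + CORT gave 22.9, 4.50, 41.0, 25.1 and 20.4 CPM and those of αACBP + CORT 1130, 817, 491, 1237 and 996 CPM. Saa3 went from 8.14, 5.16, 5.88, 5.21 and 2.32 CPM to 47.4, 32.8, 22.8, 28.2 and 21.0 CPM. For all 3 genes the lowest liver with the antibody was above the highest without it, which 3.22% of all genes tested showed in either direction, and 0.597% of genes were called in this comparison. The fitted log2 fold changes were 4.24 ± 0.74 for Saa1, 5.36 ± 0.91 for Saa2 and 2.51 ± 0.50 for Saa3. Saa4, at 216, 368, 256, 392 and 252 CPM and at 278, 360, 302, 289 and 206 CPM, overlapped fully between the groups, with a log2 fold change of -0.05 ± 0.20.

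Between both isotype groups the inducible members overlapped. Against Isotype + Vehicle, Isotype + CORT had log2 fold changes of 0.36 ± 0.65 for Saa1, -0.54 ± 0.77 for Saa2 and -0.59 ± 0.48 for Saa3. Spans of 2 standard errors on either side ran from -0.95 to 1.66, from -2.08 to 1.00 and from -1.56 to 0.38. The value of Saa4 was 0.50 ± 0.21, and 4 of 5 CORT livers were above every control. Among all genes, 1.94% were called in this comparison and 5.04% did not overlap. On top of the antibody, CORT went with a log2 difference of 0.49 ± 0.65 for Saa1, 0.09 ± 0.76 for Saa2, -0.07 ± 0.46 for Saa3 and 0.29 ± 0.20 for Saa4, all overlapping, where 2.74% of genes did not.

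Both treatments together stood above Isotype + Vehicle for the inducible members without overlap, as 3.31% of genes did in either direction. The log2 fold changes of αACBP + CORT against Isotype + Vehicle were 4.60 ± 0.75 for Saa1, 4.82 ± 0.89 for Saa2 and 1.92 ± 0.48 for Saa3, and 0.45 ± 0.21 for Saa4. The difference between the antibody's effect with and without CORT was 0.14 ± 0.92 for Saa1, 0.62 ± 1.08 for Saa2, 0.53 ± 0.67 for Saa3 and -0.21 ± 0.29 for Saa4.

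**Figure D2:**
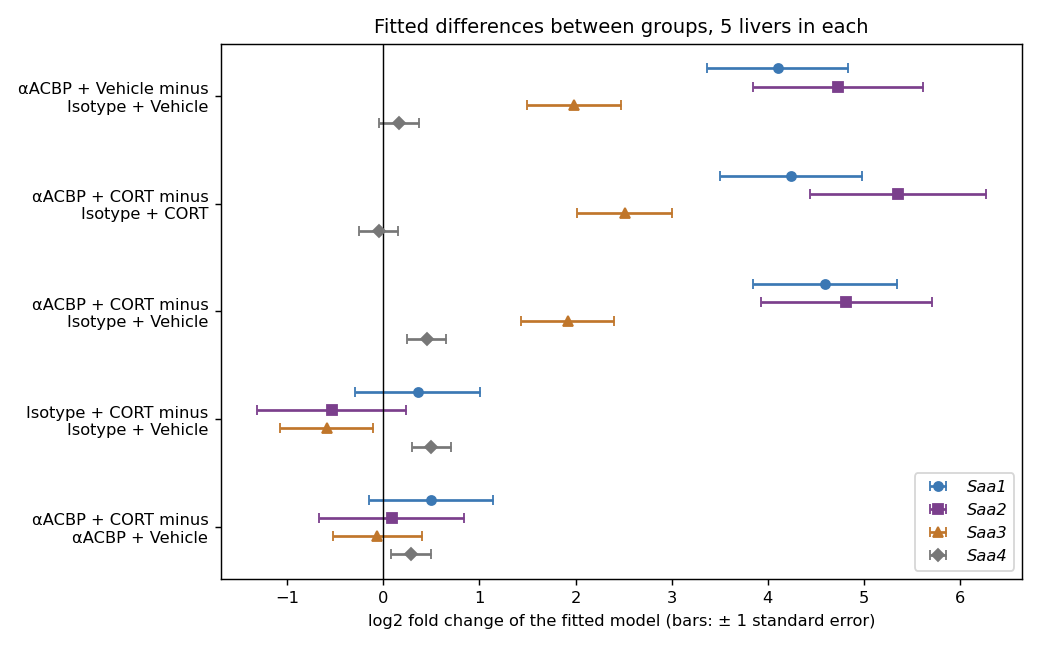
Fitted log2 fold changes of the 4 genes in 5 comparisons of groups, with bars of 1 standard error to either side and a line at 0. Saa1, Saa2 and Saa3 lie between 1.92 and 5.36 in the 3 comparisons that set antibody-treated livers against isotype livers and between -0.59 and 0.49 in both comparisons of CORT with vehicle, and Saa4 lies between -0.05 and 0.50 throughout. Only the first comparison was tested.

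The levels of Saa1 and Saa2 were alike in most livers, but their ratio was not fixed. The count of Saa2 per count of Saa1 was 0.591, 1.23, 0.686, 0.838 and 0.945 in Isotype + Vehicle, 0.910, 0.116, 0.718, 0.298 and 0.517 in Isotype + CORT, 1.33, 0.773, 1.19, 1.44 and 1.19 in αACBP + Vehicle, and 1.14, 0.737, 1.05, 1.10 and 1.06 in αACBP + CORT. In counts, which are not scaled to transcript length, Saa2 exceeded Saa1 in 4 of 5 livers of each antibody group. It did so in 1 of 5 of Isotype + Vehicle and in 0 of 5 of Isotype + CORT. Per kilobase, Saa2 was also above Saa1 in Isotype + CORT replicate 1 (35.1 against 33.2 CPM per kilobase). The same held in Isotype + Vehicle replicate 5 (81.8 against 74.6). The lowest ratio belonged to Isotype + CORT replicate 2, with 90 counts of Saa2 beside 774 of Saa1. The αACBP + Vehicle liver with little Saa1, replicate 2, also had the lowest ratio of its group. The transcripts of both genes share an identical run of up to 179 bases, and 8.59% of the 100-base stretches of Saa1 recur in Saa2, so that some read pairs could be given to either gene. The sum of both genes does not depend on which of them such a pair was given to. Pairs counted for both genes or for neither would still affect it. The sum is described with the other alternatives.

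**Figure D3:**
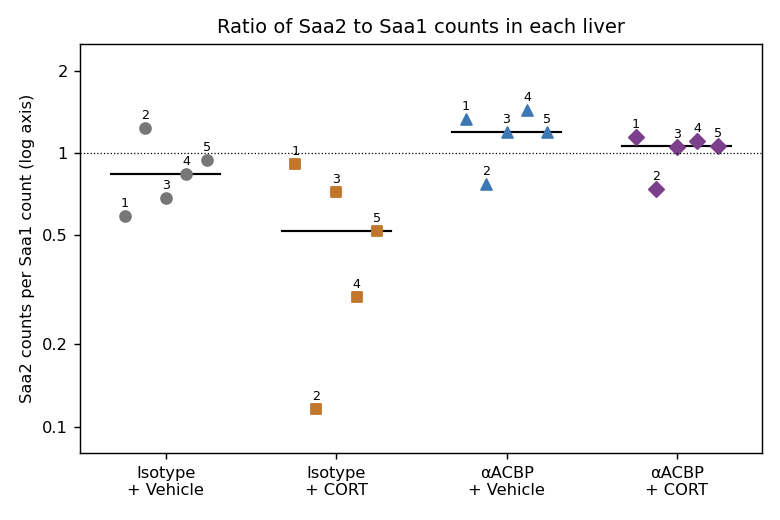
Ratio of Saa2 to Saa1 counts in each liver on a log axis, by group, with replicate numbers, the group median as a line and equality as a dotted line. The medians are 0.838, 0.517, 1.19 and 1.06 in the order of the groups, and all 5 livers of Isotype + CORT are below equality. Counts are not scaled to transcript length.

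Across the 20 livers, log2 CPM of Saa1 and Saa2 had a Pearson correlation of 0.96, Saa1 and Saa3 one of 0.90 and Saa2 and Saa3 one of 0.92. After the mean of each group was taken off, the values were 0.90, 0.75 and 0.73. Saa4 correlated at 0.26, 0.07 and 0.17 with Saa1, Saa2 and Saa3, and at 0.31, 0.06 and 0.37 within groups. These are descriptions over livers that share groups and library depth, and Saa1 and Saa2 share sequence.

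The gene most like Saa1 and most like Saa3 among 11995 genes was Orm2, which encodes an orosomucoid, an acute-phase plasma glycoprotein, with Pearson correlations of 0.89 and 0.77 over 20 livers. These contain the differences between groups, among them the one by which the family was chosen, and with group means taken off they were 0.66 and 0.46. Orm2 was at 278, 79.5, 161, 333 and 37.1 CPM in αACBP + Vehicle replicates 1 to 5 and at 31.0 to 89.8 CPM in Isotype + Vehicle. Its high livers were the same replicates 1, 3 and 4 as those of Saa1, and replicates 2 and 5 were within the control range. Engase, a cytosolic enzyme that removes N-glycans, came next for both, at 0.76 and 0.76, and at 0.47 and 0.25 within groups. It was at 16.3 to 28.7 CPM in αACBP + Vehicle and at 10.8 to 15.2 CPM in Isotype + Vehicle, so it did not fall to control level in any antibody-treated liver. For Saa1 there followed Naprt (0.76), Irf3 (0.73) and Kcnj16 (0.71), at 0.21, 0.19 and 0.64 within groups. Kcnj16 lay near the floor, with group means of 0.31 to 1.60 CPM and a lowest liver at 0 CPM in every group but αACBP + CORT. For Saa3 there followed Dmpk (0.76), Fetub (0.76) and Phf2 (0.73), at 0.24, 0.48 and 0.44 within groups. Genes most like Saa4 were others, namely Zcchc24 (0.86), Nnmt (0.83), Tubg1 (0.83), Lrg1 (0.81), an acute-phase glycoprotein, and Rpl18 (0.79), at 0.82, 0.84, 0.76, 0.77 and 0.74 within groups.

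Some of the other acute-phase genes divided by liver as Saa1 did, and others did not. Orm1 and Lrg1 were at 1215 and 508 CPM in αACBP + Vehicle replicate 2, above the highest Isotype + Vehicle livers, 1103 and 387 CPM. Of 25 positive acute-phase genes tested beside the Saa genes, 3 were called higher and 0 lower with the antibody without CORT, where 0.684% and 0.616% of all genes were, and their median log2 fold change was 0.07 against -0.02 over all genes. Lcn2, the siderophore-binding lipocalin of inflammation, rose by a log2 fold change of 2.87 ± 0.65 (adjusted p = 0.0228), with 204, 24.8, 118, 292 and 33.1 CPM in αACBP + Vehicle and 14.7 to 22.8 CPM in the controls. It repeated the order of Saa1, high in replicates 1, 3 and 4 and close to the controls in replicates 2 and 5. Lcn2 was above every control in all 5 livers, unlike Saa1 in replicate 2. Genes of metallothioneins, metal-binding proteins that also respond to glucocorticoids, were likewise above every control in all 5 livers. Mt2 rose by 2.12 ± 0.39 on the log2 scale (adjusted p = 0.00721) and Mt1 by 1.38 ± 0.33 (adjusted p = 0.0202). Mt2 was at 1347, 999, 1023, 1105 and 1014 CPM in αACBP + Vehicle and at 108 to 423 CPM in the controls. Mt1 was at 2603, 1862, 2158, 2418 and 1435 CPM and at 347 to 1150 CPM. Replicates 2 and 5 were the lowest of their group for both genes, but not within the control range. For Mt2 they were close to replicate 3, at 999 and 1014 against 1023 CPM, unlike for Saa1. Not called were Orm2, with a log2 fold change of 1.56 ± 0.47 (adjusted p = 0.0587), and Fgg, the fibrinogen gamma chain, with -0.93 ± 0.29 (adjusted p = 0.0583). At an unadjusted p under 0.05 stood 9 of the 25, 6 of them higher, and 20.6% of all genes tested.

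Under CORT, 1 of the 25 was called higher with the antibody and 0 lower, against 0.504% and 0.0933% of all genes, with a median log2 fold change of 0.21 against 0.01 over all genes. This was Orm2, at 2.27 ± 0.48 (adjusted p = 0.0279), from 37.5 to 79.1 CPM in Isotype + CORT to 228 to 453 CPM in αACBP + CORT. Lcn2, Mt2 and Mt1, called higher with the antibody without CORT, were near level with it under CORT. Their log2 fold changes there were -0.04 ± 0.60, 0.05 ± 0.38 and 0.21 ± 0.32 (adjusted p = 0.992, 0.987 and 0.894). Mean Lcn2 was 309 CPM in Isotype + CORT and 301 CPM in αACBP + CORT. Lcn2 was the member called with CORT under isotype, at 4.07 ± 0.69 (adjusted p = 0.00358), with 301, 350, 42.8, 547 and 303 CPM in Isotype + CORT. In 4 of these 5 livers Lcn2 was thus far above the controls, whose highest was 22.8 CPM, while their Saa1 lay at 25.2 to 84.4 CPM. The counts for this list with CORT were 1 higher and 0 lower, against 0.51% and 1.43% of all genes, with a median log2 fold change of 0.17 against 0.00 over all genes.

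**Figure D4:**
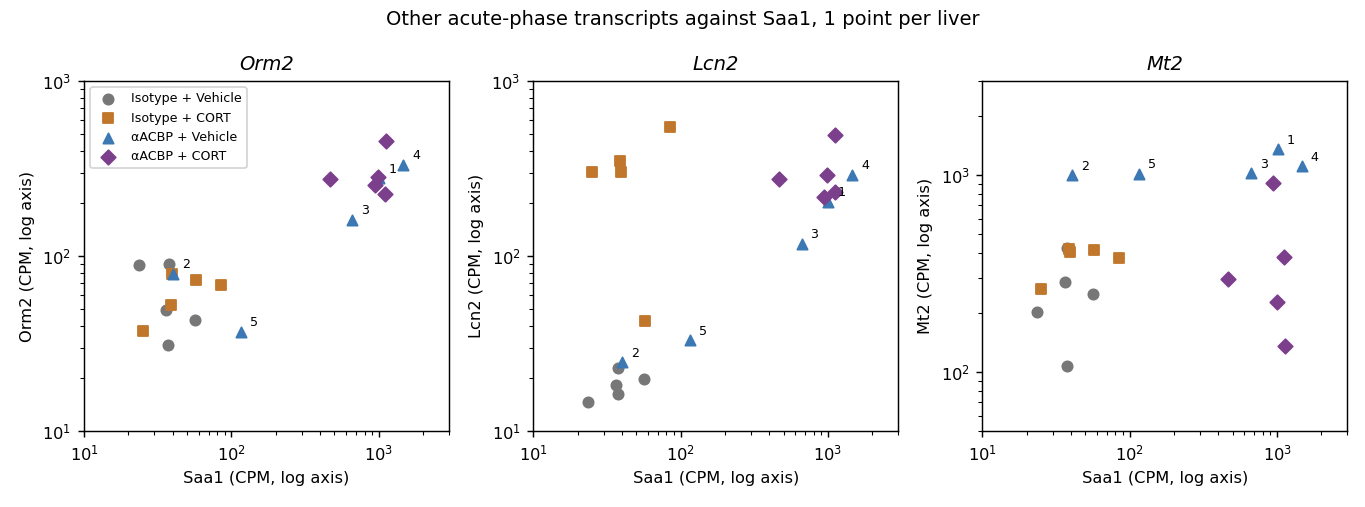
Levels of Orm2, Lcn2 and Mt2 against Saa1 in each of the 20 livers, in CPM on log axes, with marker shapes for the groups and replicate numbers for αACBP + Vehicle. Replicates 2 and 5 of that group lie low with Saa1 for Orm2 and Lcn2, within the Isotype + Vehicle range for Orm2 and just above it for Lcn2. For Mt2 they lie well above every Isotype + Vehicle liver. In Isotype + CORT, 4 of 5 livers are high for Lcn2 with low Saa1.

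Transcripts of the cytokines known to induce Saa genes were few in these livers, and 5 of 10 were too low for a test. Il6 was counted in 3 of 20 livers, with at most 15 counts, and Il22 in none, with 0 counts. Of the 5 that were tested, 1 was called with the antibody without CORT, which was Clcf1, a cytokine of the interleukin-6 family, from 5.94 ± 2.10 to 13.8 ± 5.22 CPM (SD, n = 5), at a log2 fold change of 1.22 ± 0.30 (adjusted p = 0.0195). Among all genes, 0.684% were called higher in this comparison. Clcf1 was highest, at 22.2 CPM, in replicate 5. Il1b, which encodes interleukin-1 beta, was at 0.67 ± 0.49 (adjusted p = 0.501) and Tnf at -1.55 ± 1.28 (adjusted p = 0.560). Of 19 receptors and signal transducers 0 were called by edgeR, 4 had an unadjusted p under 0.05, as 20.6% of all genes had, 3 of them higher, and 0 were called by DESeq2's Wald test. Their median log2 fold change was 0.06. Socs3, a STAT3 target that inhibits this signalling, had an adjusted p of 0.0255 at a log2 fold change of 0.88 ± 0.23, under the fold limit, and Il1r1, an interleukin-1 receptor, one of 0.82 ± 0.27 (adjusted p = 0.0688).

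Among 11 transcription factors of the Saa promoters, Cebpb, which encodes C/EBPβ, was called higher by edgeR without CORT, at 1.04 ± 0.28 (adjusted p = 0.0324), while limma's voom with liver weights called 0 of the 11, and Cebpd was not, at 0.79 ± 0.27 (adjusted p = 0.0819). Cebpb was at 415, 337, 185, 101 and 217 CPM in αACBP + Vehicle replicates 1 to 5 and at 70.3 to 190 CPM in the controls. The liver with the most Saa1, replicate 4, had the least Cebpb of its group, and replicate 2, with the least Saa1, had the second most. Of the 100 genes of all 8 lists, counted once, 5 were called higher and 0 lower without CORT, where 0.684% and 0.616% of all genes were. With CORT the antibody left 0 of the 5 cytokines, 19 receptors and transducers and 11 transcription factors called by edgeR or by DESeq2, with 1, 0 and 3 at an unadjusted p under 0.05, where 12.5% of all genes were. Relb, a subunit of nuclear factor-κB, was at 0.84 ± 0.46 (adjusted p = 0.480).

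The genes that receive or carry the SAA proteins were called in few cases. Of 9 receptors, 0 were called without CORT by edgeR or DESeq2, with 2 lower at an unadjusted p under 0.05. In this paragraph such counts stand against 20.6% of all genes without CORT and 12.5% with it. Counts of called genes stand against 1.3% of all genes for the antibody without CORT and 0.597% with it. For CORT under isotype this share was 1.94%. Cd36, a scavenger receptor that takes up fatty acids, was called lower by the antibody with CORT, at -1.08 ± 0.23 (adjusted p = 0.0173). It was the only 1 of the 9 called by edgeR there, while DESeq2 called 2 and voom with liver weights called 0. In that comparison 5 of the 9 had an unadjusted p under 0.05, and 4 of these were higher. The largest, not called, were Fpr2 at 2.66 ± 1.14 (adjusted p = 0.320) and Ager at 2.41 ± 0.84 (adjusted p = 0.182). CORT under isotype raised Cd36 by 1.68 ± 0.24 (adjusted p = 0.000291) and lowered P2rx7, an ATP-gated channel, which fell by 1.54 ± 0.40 (adjusted p = 0.0309). Of 14 genes of HDL and its remodelling, 0 were called with the antibody by edgeR or DESeq2, and an unadjusted p under 0.05 was found for 3 without CORT and 5 with it. With CORT under isotype Apoa4 rose by 2.71 ± 0.44 (adjusted p = 0.00178) and Pltp, the phospholipid transfer protein, fell by 1.52 ± 0.25 (adjusted p = 0.000762). Of 10 negative acute-phase genes 0 were called by edgeR or DESeq2 in any of these comparisons. With the antibody without CORT 3 had an unadjusted p under 0.05, all lower, and the median log2 fold change was -0.32. Rbp4, which carries retinol, had -0.80 ± 0.25 (adjusted p = 0.0582). Of 9 glucocorticoid response genes, CORT under isotype raised Fkbp5, a co-chaperone of the glucocorticoid receptor, by 1.70 ± 0.26 (adjusted p = 0.000722), and the antibody left 0 called by edgeR or DESeq2, with an unadjusted p under 0.05 for 2 without CORT and 1 with it.

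Cell types that also make SAA3 were checked by their markers. Over 9 Kupffer cell and macrophage markers, summed levels had medians of 533 CPM (377 to 806) in Isotype + Vehicle, 234 CPM (135 to 389) in Isotype + CORT, 585 CPM (474 to 818) in αACBP + Vehicle and 609 CPM (486 to 674) in αACBP + CORT. With the antibody without CORT, where Saa3 rose, 0 of the 9 were called by edgeR or DESeq2, and 3 had an unadjusted p under 0.05, as 20.6% of all genes had, 1 of them higher. The higher one was Clec4f, at 0.73 ± 0.23, and the lower ones were Lyz2 and Adgre1, at -1.21 ± 0.50 and -1.08 ± 0.49. Clec4f was also the largest part of the sum, with means of 189 CPM in Isotype + Vehicle and 313 CPM in αACBP + Vehicle. With CORT, Clec4f and Csf1r were called higher, at 1.42 ± 0.24 (adjusted p = 0.00275) and 1.07 ± 0.20 (adjusted p = 0.00720), where 0.504% of all genes were. With CORT under isotype 5 of the 9 were called lower by edgeR, where 1.43% of all genes were, 7 were called by DESeq2 and 2 by voom with liver weights. The part of these markers in the Saa3 difference under CORT was not tested. Over 7 adipocyte markers, summed levels had medians of 17.6 CPM (9.27 to 25.5) in Isotype + Vehicle, 18.1 CPM (10.9 to 23.7) in Isotype + CORT, 9.53 CPM (2.96 to 13.2) in αACBP + Vehicle and 8.81 CPM (3.55 to 10.6) in αACBP + CORT. Most of this sum was Fabp4, with means of 11.3, 13.6, 7.94 and 5.78 CPM in the same order of groups. The sum thus followed mainly 1 gene of the list. Of the 3 that were tested Cfd was called lower by edgeR with the antibody without CORT, from 2.49 ± 2.17 CPM (SD, n = 5) to 0 counts in all 5 livers (adjusted p = 0.0286), while DESeq2 called 0. Among 6 stellate cell markers Lrat, which esterifies retinol, was called lower in the same comparison, from 15.01 ± 1.91 to 7.44 ± 2.41 CPM (SD, n = 5), at a log2 fold change of -1.01 ± 0.28 (adjusted p = 0.0332). Summed stellate cell markers were at 144 to 286 CPM in Isotype + Vehicle and at 115 to 143 CPM in αACBP + Vehicle, without overlap. Of all genes tested, 0.616% were called lower in this comparison and 7.13% did not overlap. Of the 6 markers, Reln and Des were nearly level, at log2 fold changes of -0.14 ± 0.18 and -0.01 ± 0.25. The part of adipocyte and stellate cell markers in the differences of the Saa genes was not tested. Lep was at 0 in all 20 livers, and Adipoq was counted in 5 of them, with at most 20 counts. The neutrophil markers summed to at most 12.0 CPM in any liver.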

How the data were processed

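Liver RNA was sequenced by the authors in 2 × 150 base pairs, aligned with HISAT2 (version 2.2.1) and counted on genes with HTSeq-count (version 2.0.2) in union mode, and the raw counts per gene were deposited without normalization. The methods name GRCm39 and the labels mm10. Coordinates and promoters are those of RefSeq for GRCm38.p6, each promoter window also occurs 1 time on chromosome 7 of GRCm39, and lengths are from GENCODE M39. The methods state that non-unique features were included, and whether a pair fitting both Saa1 and Saa2 entered both counts is not given in the sources used here. Pairs in the class of non-unique alignments were a median of 8.60% of all pairs, and pairs on no gene 43.7%.

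Counts were tested in R 4.3.3 with the quasi-likelihood test of edgeR 4.0.16 (TMM, filterByExpr, robust) in 1 model of 4 groups without covariates, and p-values were adjusted by Benjamini-Hochberg over 16071 genes. SE were derived from the F statistic. A call needed an adjusted p up to 0.05 and a log2 fold change of at least 1 in size. Correlations used log2 CPM with a prior count of 2 in genes with a mean of at least 1 CPM. Sequences were compared with Biopython 1.88. The alternatives used DESeq2 1.42.0 and limma 3.58.1, other scaling and filters, fewer groups, a replicate block and each liver left out. The edgeR test of αACBP + Vehicle against Isotype + Vehicle was tried on simulated data in which 200 genes were changed. It called 59.5% of them, and 4.8% of its calls were false. Some of the changes put in were no larger than the limit on the fold change. The share called thus depends on the sizes chosen as well as on the test. A gene not called can still have changed.

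The members and the gene lists were chosen with earlier results of these data known. Named genes were the 4 members, of each list up to 4 called genes per comparison and up to 2 others with the largest change, from which a selection is given, and the 5 genes most correlated with Saa1, Saa3 and Saa4. Limits from counts of 0 cover counting error only, SE cover the spread between livers, and 0 columns of the table were left unassigned. Groups are separate mice. Results of some genes taken by the rule are left out of the text.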

Additional observations from a re-analysis of the deposited data

Results flagged for a closer look

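In αACBP + CORT, Saa1 of replicate 3 was at 467 CPM, with the next liver at 938 CPM, a gap of 0.719 of the range of the group, above the limit of 0.71 for 5 values. The ratio of Saa2 to Saa1 counts in αACBP + CORT replicate 2 was 0.737, with the next at 1.05, a gap of 0.784 of the range. These were 2 of 20 sets of 5 livers examined, and chance marks about 1 in 20. The 2 values belong to different livers.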

How the results depend on the processing

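With the antibody without CORT, Saa1 and Saa2 kept their direction under all 12 alternatives, and their calls in the 10 that give another adjusted p and with each of 20 livers left out, at adjusted p-values up to 0.0346 and 0.0432 and, with livers left out, log2 fold changes of 3.57 to 4.41 and 4.11 to 5.04. The lowest values, 3.20 and 3.68, are differences of mean log2 CPM with a prior count, where the exact permutation p is unadjusted, and leaving off the limit on the fold change could not end a call. Saa1 and Saa2 added up and fitted as 1 gene gave 4.43 (adjusted p = 0.00704). Saa3 lost its call with only the groups compared (1.98, adjusted p = 0.0605) and with the replicate block (1.80, adjusted p = 0.0665), and lay between 1.66 and 2.30 with livers left out, 4 of which ended the call. Saa4 lay between -0.0092 and 0.31 with livers left out, and the negative value arose without αACBP + Vehicle replicate 1. In the lists, genes called higher by the antibody with CORT were 2 in place of 1 under total counts, without the 20 most abundant genes and at 10 counts in every liver, and 3 under DESeq2's Wald test. The replicate block gave 3 in place of 5 without CORT and 1 in place of 2 lower with CORT under isotype. The cause of these shifts was not tested. Same-numbered livers are different mice whose deviations correlated at -0.10 to 0.097, and 3 of 20 livers correlated best with their own number, so the number was not taken as a pairing. The block changed no other call of a member or count of list genes by more than 1.5 times. Of the descriptive differences, sign changed for Saa4 with the antibody under CORT in 4 settings, for Saa2 and Saa3 with CORT under the antibody in 4 and 7, for Saa2 with CORT under isotype in 1, for Saa1 in the interaction in 4, and for the mean log2 ratio of Saa2 to Saa1 in αACBP + CORT with 4 of its livers left out in turn. The lists were also fitted with limma's voom, an alternative chosen after seeing the data, which called 2 genes higher and 0 lower by the antibody with CORT, and 1 lower with CORT under isotype.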

Other observations

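The second liver of αACBP + Vehicle, with Saa1 and Saa2 at control level, was not at control level for the antibody comparison at large. With this liver left out, 210 genes were called between αACBP + Vehicle and Isotype + Vehicle, and for 98.6% of them the second liver lay on the same side of the control mean as the other 4. Its median position on the way from the control mean to the mean of those 4 was 71.5% on the log2 scale, while its Saa1 stood at 3.29%. The fifth liver was at 104% over 110 genes and at 45.7% for Saa1. The first liver was at 106% over 90 genes and at 170% for Saa1, the fourth at 57.2% over 282 genes and at 198% for Saa1, and the third at 67.1% over 223 genes and at 141% for Saa1. These positions are descriptions of 5 livers, and no cause was tested.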
